A study of Mus musculus with 31 samples.

Results

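The circadian clock genes Clock, Per1, Per2, Per3, Cry1, Nr1d1, Nr1d2, Dbp and Tef, together with Rgs16, were followed in the liver, the kidney and the blood leukocytes of mice given bacterial endotoxin. The 10 genes were chosen by symbol, and all 18 probes annotated to them were taken, out of 16593 genes with a symbol on the array. The animals were male C57BL/6J mice 20 to 30 weeks old, and every animal received lipopolysaccharide (LPS), the bacterial cell wall component that triggers systemic inflammation, so no group shows the organs without LPS. Besides LPS, the groups received vehicle, IVIg (pooled immunoglobulin) or modIVIg, an immunoglobulin modified in a way that is not given in the labels. Liver was measured on 4 vehicle, 4 IVIg and 4 modIVIg arrays, kidney on 3, 4 and 4, and blood on 3, 3 and 1 usable array. The labels give neither the hour of collection nor the time after LPS, and do not tie arrays of different organs to one mouse. Where nothing says that the samples of a group came from separate animals, p-values measure only the spread between these samples.

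The mammalian clock is a transcriptional feedback loop. CLOCK pairs with BMAL1 (the product of Arntl) and binds E-box sequences of the Per and Cry genes, whose proteins then repress CLOCK and BMAL1. The nuclear receptors NR1D1 and NR1D2 (REV-ERB alpha and beta) repress Arntl, and the transcription factors DBP and TEF carry the rhythm on to D-box genes, many of them metabolic in liver and kidney. Rgs16 encodes a regulator of G-protein signalling that shortens signalling by G-protein-coupled receptors, and its liver transcript is known to vary over the day and with feeding.

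Promoter windows of 250 bases before to 50 bases after the annotated start, from RefSeq on build GRCm38.p6, were found for 9 of the 10 genes, in 13 windows. They were searched on both strands for the E-box CACGTG, the related CACGTT, the D-boxes TTATGTAA and TTACGTAA, the NR1D1 and ROR element TAGGTCA and the CRE TGACGTCA, and 5 of the genes held at least 1 match. The E-box CACGTG occurred in windows of Per1, Cry1 and Tef and in 7.15% of all 32851 mouse windows. CACGTT occurred on the reverse strand in Nr1d1 and Cry1 and in 4.68% of all windows. TTATGTAA occurred in Per3, at 2 places, and in 0.938% of all windows. Of the other letters searched, TTACGTAA was in 0.119%, TAGGTCA in 2.61% and TGACGTCA in 1.79% of all windows and in none of the 13. The windows of Rgs16 and Nr1d1, the pair with the largest falls in liver, of Per1, and of Dbp and Tef are shown, each on the gene's coding strand 5′ to 3′, in lower case with any match in capitals. They lie at chr1:153740103-153740402 on the plus strand for Rgs16, chr11:98775328-98775627 on the minus strand for Nr1d1, chr11:69098699-69098998 on the plus strand for Per1, chr7:45704997-45705296 on the plus strand for Dbp and chr15:81802423-81802722 on the plus strand for Tef.
Rgs16: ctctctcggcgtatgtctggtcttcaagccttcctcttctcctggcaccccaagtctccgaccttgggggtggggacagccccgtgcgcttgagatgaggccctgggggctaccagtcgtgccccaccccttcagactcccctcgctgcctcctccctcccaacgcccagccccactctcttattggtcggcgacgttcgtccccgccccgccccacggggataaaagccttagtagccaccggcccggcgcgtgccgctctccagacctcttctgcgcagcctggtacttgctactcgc
Nr1d1: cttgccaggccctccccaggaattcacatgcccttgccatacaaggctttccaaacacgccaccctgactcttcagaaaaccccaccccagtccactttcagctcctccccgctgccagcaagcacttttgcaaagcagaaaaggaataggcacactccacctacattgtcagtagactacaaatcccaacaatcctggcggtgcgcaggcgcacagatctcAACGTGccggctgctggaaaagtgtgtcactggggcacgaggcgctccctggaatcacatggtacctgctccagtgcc
Per1: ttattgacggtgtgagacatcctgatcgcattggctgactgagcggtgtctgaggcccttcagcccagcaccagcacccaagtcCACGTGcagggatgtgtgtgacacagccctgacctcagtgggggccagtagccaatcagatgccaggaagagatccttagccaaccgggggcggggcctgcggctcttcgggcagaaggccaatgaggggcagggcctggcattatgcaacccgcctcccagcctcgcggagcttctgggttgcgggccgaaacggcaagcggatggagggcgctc
Dbp: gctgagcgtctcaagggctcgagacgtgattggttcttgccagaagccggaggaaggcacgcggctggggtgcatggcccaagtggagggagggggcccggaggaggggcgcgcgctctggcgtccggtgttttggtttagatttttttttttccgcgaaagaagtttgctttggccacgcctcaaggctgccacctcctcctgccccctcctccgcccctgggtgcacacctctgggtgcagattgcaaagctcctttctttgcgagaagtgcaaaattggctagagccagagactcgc
Tef: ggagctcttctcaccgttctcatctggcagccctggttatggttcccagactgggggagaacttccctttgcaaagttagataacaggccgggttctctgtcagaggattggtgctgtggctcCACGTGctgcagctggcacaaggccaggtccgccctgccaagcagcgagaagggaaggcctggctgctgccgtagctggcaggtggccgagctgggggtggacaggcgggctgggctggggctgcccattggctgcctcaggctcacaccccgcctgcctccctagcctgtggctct
In the Nr1d1 window the capitals lie at -28 to -23 from the start, in Per1 at -166 to -161 and in Tef at -127 to -122. For Per1 and Tef only window 1 of 2 is shown. Window 2 of Per1 held 0 matches, and window 2 of Tef held 1, an E-box. The Rgs16 and Dbp windows hold none of these letters, which says nothing of sites outside 300 bases.

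Levels are log2 bead signals, background corrected with the deposited detection p-values and quantile normalised within each organ, and a probe counted as detected at a detection p under 0.01. Of all probes, 31.6% to 35.3% were detected per liver array, 34.8% to 41.2% per kidney array and 8.09% to 18.7% per blood array. Liver detected the hepatocyte markers, with Ttr and Apoa1 on 12 of 12 arrays, and kidney detected 5 of 5 proximal tubule markers. Blood held neutrophil markers, 7 of 7, but also erythroid markers with a summed level of 125000 to 159000, and 0 of 5 proximal tubule markers. Liver held 12 detected member probes of 8 genes, kidney 10 probes of 7 genes and blood 1 probe, of Per1. Cry1, a repressor, and Per3, a period protein, were detected on 0 of 30 arrays, and a probe below background does not show that the transcript is absent. Undetected too were 1 probe of Per2, 1 of Tef and 2 of Clock, whose other probes were read.

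IVIg replicate 3 stood apart from the other arrays in both organs. It was the highest or lowest array for 35.5% of the 7155 features tested in liver and for 46.1% of the 8544 in kidney. The differences that involve it are also given without it, a choice made for several of them after the data were seen. Kidney arrays also fell into 2 sets by replicate number: replicates 1 and 2 did not overlap replicates 3 and 4 for 32.7% of kidney features, against 0.727% in liver.

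Rgs16 was the gene of the 10 that fell in liver with modIVIg. Its levels were 9.42, 11.33, 10.38 and 9.03 in the vehicle livers, 9.35, 9.88, 7.24 and 8.83 in the IVIg livers and 8.20, 7.79, 6.49 and 6.34 in the modIVIg livers. Every modIVIg liver lay below every vehicle liver, and 19.8% of liver features likewise had no overlap, in either direction. The IVIg livers overlapped the vehicle and the modIVIg livers for Rgs16. Treatment comparisons within an organ share arrays, so their values are not independent of each other. The difference of modIVIg from vehicle was -2.83 ± 0.63 (SE of the limma fit, n = 4 and 4), a 7.13-fold lower signal with a 95% interval of -4.19 to -1.48 and an adjusted p of 0.0282, and 4.92% of liver features passed that threshold. The exact two-sided permutation p was 0.0286, the smallest that 70 splits can give. It was the change of rank 2 among the falls of 7155 features.

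The other comparisons of Rgs16 in liver did not pass. IVIg differed from vehicle by -1.21 ± 0.63 (adjusted p 0.999 by limma, 0% of features called), and modIVIg from IVIg by -1.62 ± 0.63 (adjusted p 0.22, 1.09% called). Without IVIg replicate 3, whose 7.24 is the lowest IVIg value, the modIVIg against IVIg difference was -2.15 with an adjusted p of 0.0464. The vehicle difference kept its direction without each of the 12 arrays, from -3.17 to -2.41, but its adjusted p was 0.0897 without vehicle replicate 2, 0.0686 without vehicle replicate 3, 0.0765 without modIVIg replicate 3 and 0.0731 without modIVIg replicate 4. It was -2.17 with an adjusted p of 0.0263 on the authors' own processed values, and ran from -2.83 to -2.10 over 11 alternatives of processing and fit. ModIVIg replicates 3 and 4, at 6.49 and 6.34, were detected at low signal (detection p 0.00752 and 0.00125). The size of the fall is therefore less firm than its direction.

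Some Kupffer cell markers, though not all, were also lower in the modIVIg livers than in the vehicle livers. Of 5 markers tested, Clec4f, detected on 12 of 12 livers, fell by 1.16 ± 0.25 (adjusted p 0.0272), and Marco (0.32) and Adgre1 (-0.15) did not pass. Vsig4 and Timd4 also passed with lower values, but they were kept through the groups where they are brighter: Vsig4 was detected on 4 of 4 vehicle and 1 of 4 modIVIg livers and Timd4 on 3 of 4 and 0 of 4, so the sizes of their differences are not given. Cd5l, the remaining Kupffer marker on the array, was undetected. All 6 together had a summed level of 1070 to 2180 in vehicle, 786 to 2160 in IVIg and 694 to 1930 in modIVIg livers. In these bulk samples fewer cells of a type and less RNA per cell cannot be told apart, and the part of cell numbers in the Rgs16 difference was not tested. The sinusoidal endothelial markers had 1 of 6 that fell, Clec4g, with a summed level of 2300 to 3560 in vehicle, 2090 to 3760 in IVIg and 1370 to 2430 in modIVIg livers. The erythroid markers had 1 of 3 that fell, Slc4a1, and the neutrophil and hepatocyte markers 0 of 5 and 0 of 7. All 7 hepatocyte markers were lower in sign with modIVIg than with vehicle, though none passed. Their summed level was 212000 to 227000 in vehicle, 214000 to 230000 in IVIg and 204000 to 210000 in modIVIg livers. T and B lymphocyte markers were detected on 0 of 12 arrays.

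Nr1d1, the repressor REV-ERB alpha, was lower in 3 of the 4 modIVIg livers. By its brighter probe it read 8.70, 8.62, 8.14 and 8.34 in vehicle, 8.74, 8.86, 7.96 and 8.65 in IVIg and 7.66, 8.38, 7.29 and 7.36 in modIVIg livers, so that modIVIg replicate 2 lay within the vehicle range. The differences were -0.78 ± 0.26 against vehicle (adjusted p 0.0927) and -0.88 ± 0.26 against IVIg (adjusted p 0.113), and neither passed. The dimmer probe read 7.33, 7.21, 6.66 and 7.16 in vehicle, 7.30, 7.48, 6.46 and 6.88 in IVIg and 5.70, 6.21, 5.57 and 6.54 in modIVIg livers, with 1 of 4 modIVIg arrays detected against 8 of 8 others. Here vehicle and modIVIg did not overlap, as for 19.8% of features by their chosen probe. In a fit of every kept probe on its own this probe differed by -1.09 ± 0.26 from vehicle, with an adjusted p of 0.0376. The probe was kept through the vehicle and IVIg livers and is mostly below detection with modIVIg, so neither the size nor the call is firm. The difference was -0.46 (adjusted p 0.0544) on the authors' values and -0.48 (adjusted p 0.0504) without background correction, and it passed in 6 of 12 fits that left out 1 array. Without IVIg replicate 3 the brighter probe passed against vehicle (adjusted p 0.0405) and against IVIg (-1.07, adjusted p 0.0281).

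The remaining members did not pass in liver. Clock, the activator of the loop, read 9.08, 9.16, 9.06 and 9.41 in vehicle, 9.36, 8.86, 9.29 and 9.26 in IVIg and 9.72, 9.22, 9.50 and 9.75 in modIVIg livers. It was above the vehicle maximum in 3 of 4 modIVIg livers, with a level of 9.55 ± 0.25 (SD, n = 4) in modIVIg and 9.18 ± 0.16 in vehicle livers, a difference of 0.37 ± 0.16 with an adjusted p of 0.177. Tef read 8.81, 8.56, 9.51 and 9.12 in vehicle, 9.18, 8.19, 9.65 and 8.70 in IVIg and 9.04, 9.01, 8.94 and 9.72 in modIVIg livers. Per1 read 9.31, 9.79, 9.60 and 9.69 in vehicle, 9.79, 9.64, 8.85 and 9.59 in IVIg and 9.26, 9.50, 9.23 and 9.43 in modIVIg livers. The treatments overlapped for both. Nr1d2, the other REV-ERB, differed by 0.22 ± 0.19, Per1 by -0.24 ± 0.19, Tef by 0.18 ± 0.30 and Dbp by -0.06 ± 0.74. Per2 differed by 0.00 ± 0.36, with a 95% interval from -0.79 to 0.79. The intervals of Dbp, -1.66 to 1.53, include changes of either sign. With IVIg against vehicle all 8 genes gave an adjusted p of 0.999 or 1 by limma, and 128 liver features had an unadjusted p under 0.05 with 0 called. For both other liver comparisons 0 of 8 members had groups that did not overlap, where 0.894% of features did with IVIg against vehicle and 9.64% with modIVIg against IVIg.

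**Figure D1:**
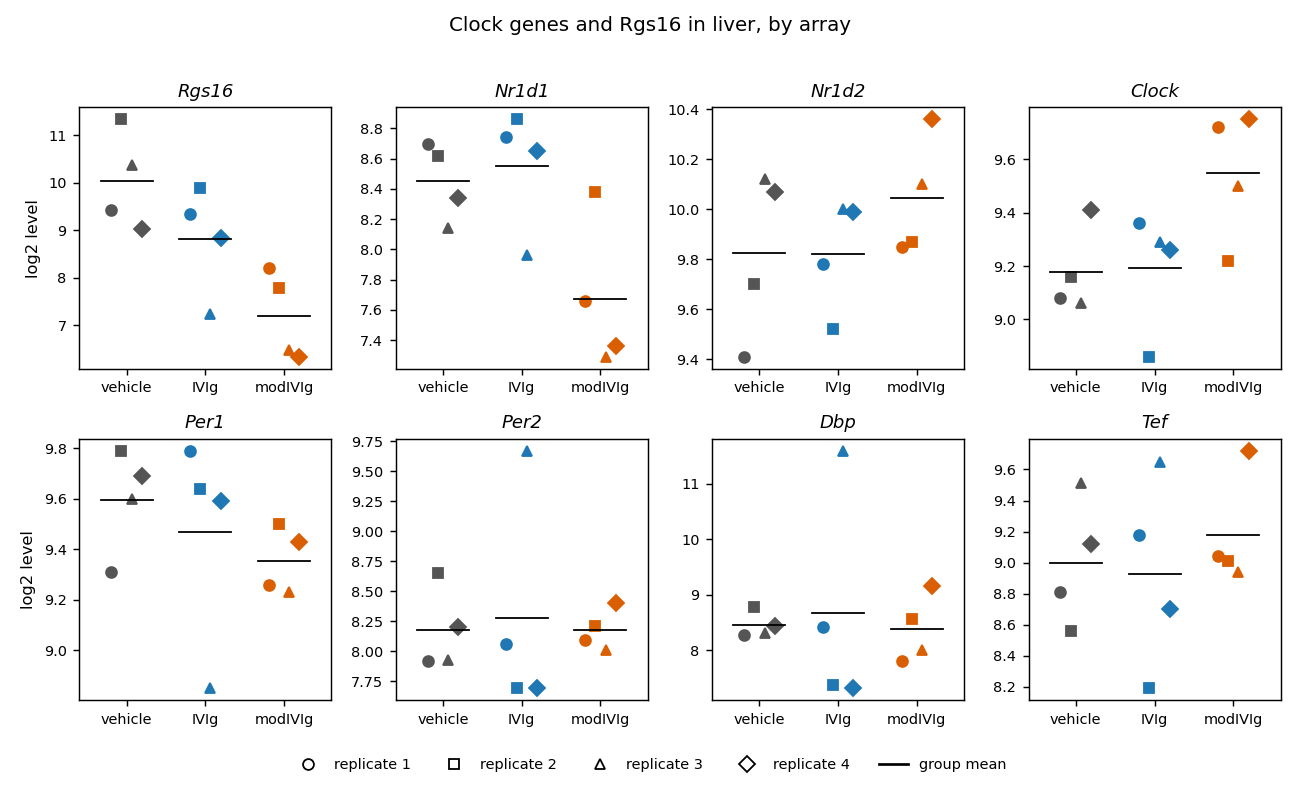
Log2 level of the 7 clock genes detected in liver and of Rgs16, by array: each point is 1 liver, the shape gives its replicate number, the colour its treatment, and the bar is the group mean. Rgs16 is lowest in modIVIg (6.34 to 8.20), and IVIg replicate 3 is the highest array for Per2 (9.67) and Dbp (11.59) and the lowest for Per1 (8.85).

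In the wider clock list of Arntl, Cry2, Rora, Bhlhe40, Nfil3, Ciart, Csnk1d, Csnk1e and Btrc, 0 of 9 tested genes passed in liver with modIVIg against vehicle, where the median change was 0.02 against 0.04 over all features. Ciart, a repressor of CLOCK and BMAL1, differed by -0.62 ± 0.39 and Cry2 by -0.41 ± 0.27, the largest 2 by test statistic, and neither passed. Of 6 tested outputs of the clock, Noct, a deadenylase family gene with rhythmic expression, fell by 1.03 ± 0.24 (adjusted p 0.0367), in a comparison where 4.92% of all features passed. Its vehicle levels of 8.70, 9.43, 8.50 and 8.98 lay above the modIVIg levels of 7.60, 7.92, 7.98 and 7.99, a separation that 19.8% of features share, and it kept its call in 5 of 12 fits without 1 array. Among 9 tested targets of glucocorticoid and cAMP signalling, Pck1, the gluconeogenic enzyme, fell by 0.68 ± 0.16 (adjusted p 0.0374), also in 5 of 12 such fits. None of 3 tested relatives of Rgs16 passed: Rgs1 differed by -1.04 ± 0.48 (adjusted p 0.203) and Rgs4 by -0.54 ± 0.29 (adjusted p 0.272). Of 9 carbohydrate-responsive genes 0 passed; Elovl6, a fatty acid elongase, differed by -0.88 ± 0.33 (adjusted p 0.132) and Scd1, a desaturase, by -0.36 ± 0.18. In kidney, blood, and the other liver comparisons 0 genes of these lists passed, though without IVIg replicate 3 Noct passed with modIVIg against IVIg in liver (-0.96, adjusted p 0.0362); in kidney with modIVIg, the leading pairs by test statistic were Rora (-0.20) and Ciart (-0.29), Usp2 (-0.60) and Lpin1 (0.63), Rgs3 (0.17) and Rgs1 (-0.26), Elovl6 (-0.69) and Mlxipl (0.34), and G6pc (-0.75) and Sgk1 (-0.25).

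In kidney Rgs16 was detected on 2 of 11 arrays, vehicle replicates 1 and 3, at 6.51 and 6.49. Its other kidney levels ran from 5.47 to 6.37, none detected, so that no treatment test was made on kidney alone. A comparison of the liver and kidney differences of Rgs16, added after the data were seen, did not pass (adjusted p 0.384 by limma). With 0 of 4 modIVIg kidneys detected, that comparison cannot decide whether the organs differ.

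The other 7 genes were detected on 11 of 11 kidney arrays, and none passed with modIVIg or IVIg against vehicle, where 0% of 8544 features passed and 226 and 116 had an unadjusted p under 0.05. For 0 of 7 members did the groups not overlap, against 5.24% of features with modIVIg and 1.70% with IVIg. Clock read 10.04, 10.07 and 10.30 in vehicle, 9.99, 9.89, 10.43 and 10.16 in IVIg and 10.19, 9.91, 10.61 and 10.29 in modIVIg kidneys. Nr1d1 read 6.72, 7.08 and 7.03 in vehicle, 7.07, 6.86, 7.72 and 7.66 in IVIg and 6.49, 6.95, 7.28 and 7.27 in modIVIg kidneys. The treatments overlapped for both. Clock differed by 0.12 ± 0.19 with modIVIg, Per1 by 0.15 ± 0.26, Nr1d1 by 0.06 ± 0.27, Per2 by -0.40 ± 0.35, Dbp by -0.36 ± 0.31 and Tef by -0.25 ± 0.33. With modIVIg against IVIg, Dbp differed by -0.66 ± 0.29, Per2 by -0.63 ± 0.33 and Tef by -0.66 ± 0.31, each with an adjusted p of 1 and with 325 features at an unadjusted p under 0.05. Tef levels were 9.46, 9.56, 10.72 and 9.36 in IVIg and 9.16, 9.04, 9.03 and 9.23 in modIVIg kidneys, without overlap, which 2.39% of features also showed. Without IVIg replicate 3 these 3 differences were -0.40, -0.37 and -0.35. None of the 7 members passed the test of its modIVIg difference between liver and kidney: Nr1d1, at -0.78 and 0.06, had the smallest p, 0.0429 (adjusted 0.571, limma), with 0.119% of features called.

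**Figure D2:**
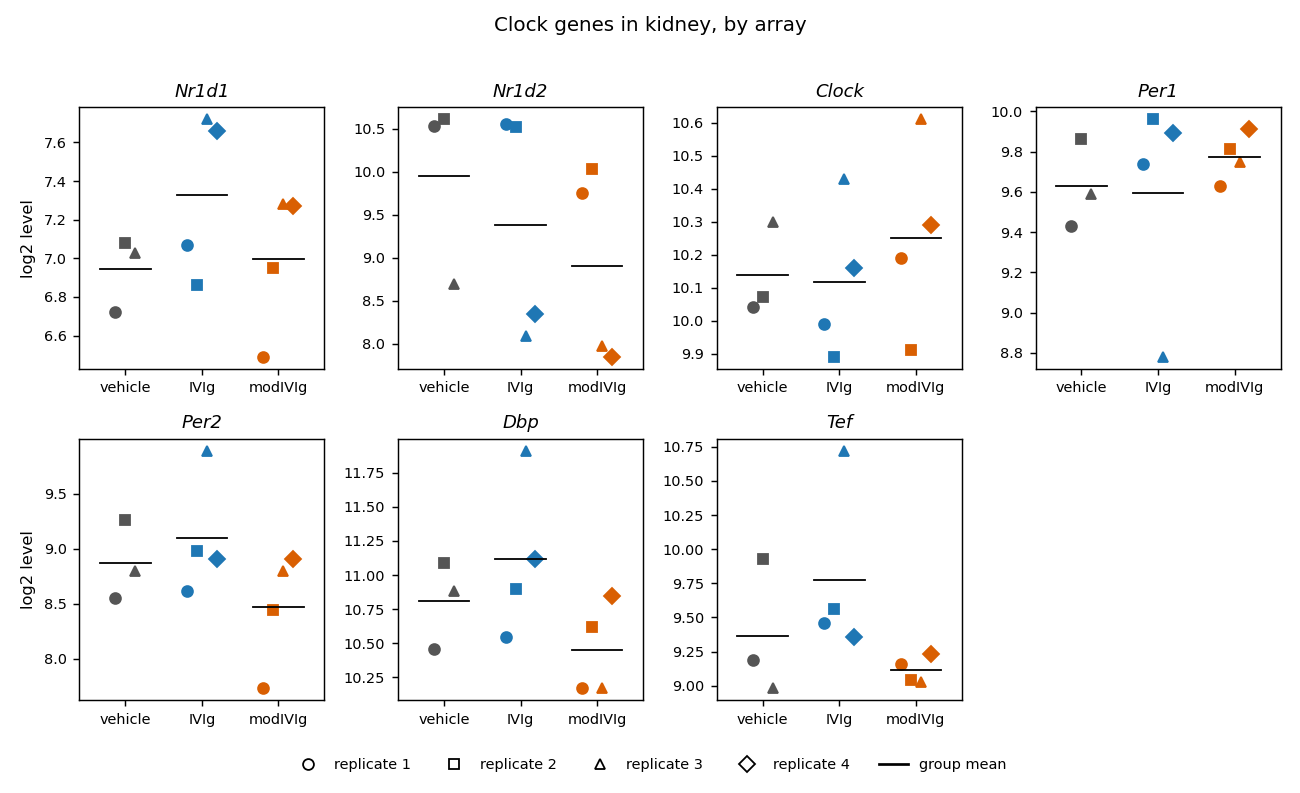
Log2 level of the 7 clock genes detected in kidney, by array: each point is 1 kidney, the shape gives its replicate number, the colour its treatment, and the bar is the group mean. Nr1d2 separates by replicate number in every treatment, and IVIg replicate 3 is highest for Per2 (9.89), Dbp (11.91) and Tef (10.72) and lowest for Per1 (8.78).

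Nr1d2 in kidney followed the replicate number more than the treatment. Vehicle kidneys read 10.53, 10.61 and 8.70, IVIg kidneys 10.56, 10.52, 8.09 and 8.35, and modIVIg kidneys 9.75, 10.03, 7.98 and 7.85. Replicates 1 and 2 averaged 10.33 (9.75 to 10.61) and replicates 3 and 4 averaged 8.20 (7.85 to 8.70), with no overlap. The dimmer Nr1d2 probe was detected on exactly the 6 kidney arrays of replicates 1 and 2, at 6.37 to 7.32, and on none of the other 5, at 4.67 to 4.99. Nampt, an NAD-producing enzyme that is itself a clock output, separated into the same 2 sets, at 12.26 and 7.51, as did Arntl, at 7.82 and 6.59, and Pck1, at 12.25 and 8.12. Btrc and Insig2 separated with replicates 3 and 4 higher. In all, 6 of 25 listed genes separated, against 32.7% of all kidney features. These 25 include the 7 members, of which 1 separated. The labels do not say what the numbers stand for, and whether preparation, hour or another difference separates them cannot be told apart.

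Within each set modIVIg lay lowest for Nr1d2. The modIVIg difference from vehicle was -1.05 ± 0.82 in the fit without the number. With the number as a block it was -0.70 ± 0.15, an unadjusted p of 0.00147 and an adjusted p of 0.727 by limma. It was -0.69 within replicates 1 and 2 (2 against 2 arrays) and -0.78 within replicates 3 and 4 (2 against 1). In liver the brighter Nr1d2 probe ran the other way. It read 9.41 to 9.87 in replicates 1 and 2 and 9.99 to 10.36 in replicates 3 and 4. These sets did not overlap, as for 0.727% of liver features. The dimmer probe, detected on 5 of 12 livers, did not separate, at 5.84 to 7.06 and 6.13 to 6.61.

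**Figure D3:**
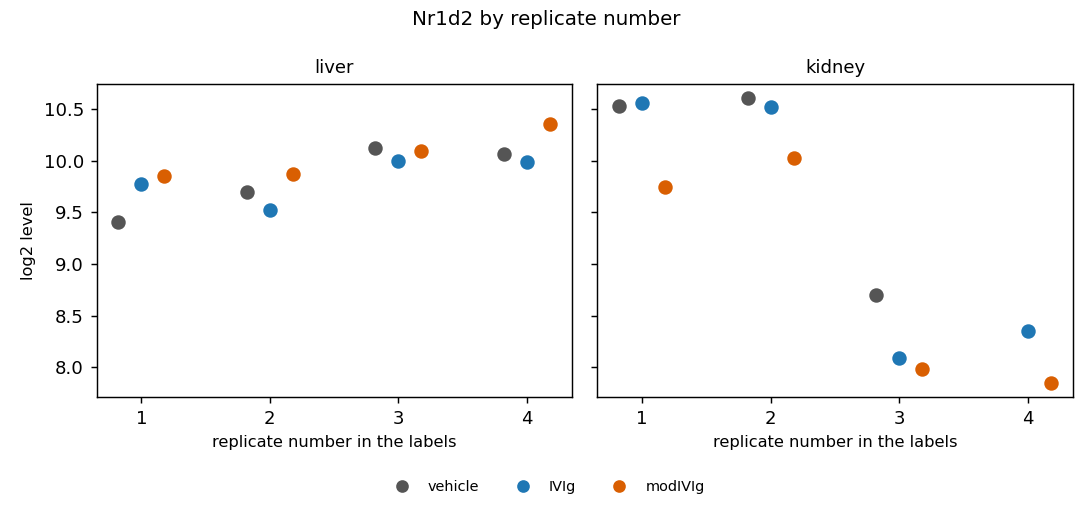
Log2 level of Nr1d2 against the replicate number of the labels in liver and in kidney, each point 1 array coloured by treatment. By the brighter probe, kidney replicates 1 and 2 sit at 9.75 to 10.61 and replicates 3 and 4 at 7.85 to 8.70. In liver replicates 3 and 4 are the higher set by this probe.

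**Figure D4:**
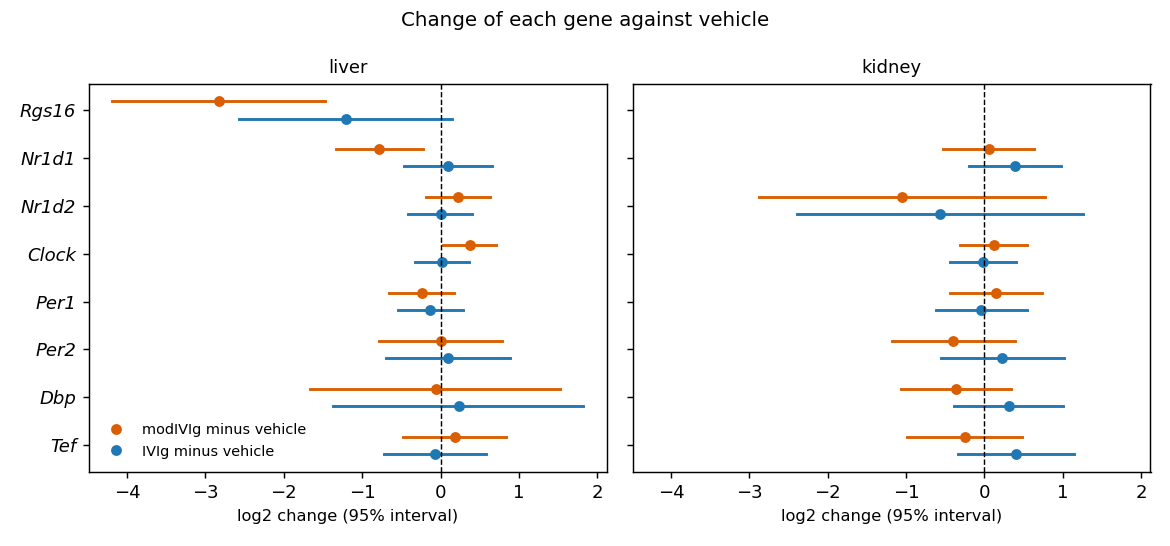
Fitted log2 change of each gene against vehicle in liver and kidney (points) with its 95% interval (lines), modIVIg in orange and IVIg in blue; Rgs16 was not tested in kidney. The Rgs16 interval with modIVIg in liver, -4.19 to -1.48, lies farthest from 0, and the kidney intervals all include 0.

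The period gene Per2 and the output factor Dbp varied together between arrays. Liver Dbp read 8.27, 8.78, 8.31 and 8.43 in vehicle, 8.41, 7.38, 11.59 and 7.31 in IVIg and 7.80, 8.56, 8.0 and 9.16 in modIVIg. Liver Per2 read 7.92, 8.65, 7.93 and 8.20 in vehicle, 8.06, 7.69, 9.67 and 7.69 in IVIg and 8.09, 8.21, 8.01 and 8.4 in modIVIg. IVIg replicate 3 was the highest liver for both, by 3.28 over the median of the others for Dbp and 1.61 for Per2. After subtraction of the group means the Pearson correlation was 0.962 and Spearman's rho 0.860 over 12 livers (permutation p adjusted over 28 pairs 0.00084 and 0.0185), 0.927 without the 2 livers farthest in Per2 and 0.764 without IVIg replicate 3. It was the 1 pair of 28 that passed in liver.

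In kidney the same pair did not hold its call once the replicate sets were taken into account. Kidney Dbp read 10.46, 11.09 and 10.88 in vehicle, 10.55, 10.90, 11.91 and 11.12 in IVIg and 10.17, 10.62, 10.17 and 10.85 in modIVIg. Kidney Per2 read 8.55, 9.26 and 8.80 in vehicle, 8.62, 8.98, 9.89 and 8.91 in IVIg and 7.73, 8.44, 8.80 and 8.91 in modIVIg. IVIg replicate 3 was again the highest for both. Per2 and Dbp correlated at 0.806 (rho 0.809) over 11 kidneys after subtraction of the treatment means, at 0.709 without the 2 farthest and at 0.643 without IVIg replicate 3. The permutation p adjusted over 21 pairs was 0.0266 for r and 0.0414 for rho, but it takes the kidneys as exchangeable, and they fall into the 2 sets described above. With the set removed too and permutation within sets, a calculation added after the data were seen, r was 0.739 and rho 0.691, with adjusted permutation p of 0.135 and 0.209. By that calculation 0 of 21 kidney pairs passed. Dbp and Tef correlated at 0.80 (adjusted permutation p 0.0916) and at 0.565 without IVIg replicate 3, and Per2 and Nr1d1 at 0.685 (adjusted permutation p 0.136).

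Per1, which is also induced acutely by stress signals, went the opposite way in IVIg replicate 3. It was the lowest liver (8.85, others 9.23 to 9.79) and the lowest kidney (8.78, others 9.43 to 9.96) of all. The dimmer Per1 probe gave the same order at 7.11 and 7.20. The repressor Nfil3, at 9.86 in liver and 9.29 in kidney, stood at -2.13 and -2.36 from the median of the other arrays, and Arntl, Rora, Bhlhe40, Csnk1d, Nampt, Dusp1 and Crem were also lowest in that array in both organs. Tsc22d3, a glucocorticoid target, was highest in both, by 2.16 and 0.75. Of 30 listed genes kept in both organs, 9 were lowest in this array in both and 5 highest in both, the latter Per2, Dbp, Btrc, Insig2 and Tsc22d3. Over the 6741 features kept in both organs the shares were 7.33% lowest in both and 9.76% highest in both.

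Liver and kidney arrays of the same treatment and number were compared after the data were seen, over 11 pairs and 16 clock genes. The labels do not join these pairs to one mouse. The correlations were taken after subtraction of the treatment means in each organ. The permutations take the pairs as exchangeable, which the kidney sets put in doubt, so the p-values are descriptive. Per1 correlated at 0.919 (rho 0.845, permutation p adjusted over 16 genes 0.00336 and 0.0151), at 0.681 without the 2 farthest pairs and at 0.652 without IVIg replicate 3. Dbp correlated at 0.767 (rho 0.691, adjusted permutation p 0.0255 and 0.0913), at 0.687 without the 2 farthest pairs and at 0.350 without that array. Per2 correlated at 0.71 (rho 0.664, adjusted permutation p 0.0351 and 0.0949), at 0.319 without the 2 farthest pairs and at 0.398 without that array. Both were lower without IVIg replicate 3, so neither is firm. Nfil3 correlated at 0.971 and 0.551 without it. The median over 6741 genes was 0.139, with quartiles of -0.186 and 0.445. Clock (0.43), Tef (0.285) and Nr1d1 (-0.554) did not pass. Csnk1d correlated at 0.722 (rho 0.555, adjusted permutation p 0.0391 and 0.166) and at 0.146 without IVIg replicate 3. Nr1d2 correlated negatively, at -0.859 (rho -0.736, adjusted permutation p 0.00827 and 0.0676) and at -0.855 without IVIg replicate 3. Its 2 replicate sets lie in opposite order in liver and kidney, so this value is not read as a link between arrays.

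**Figure D5:**
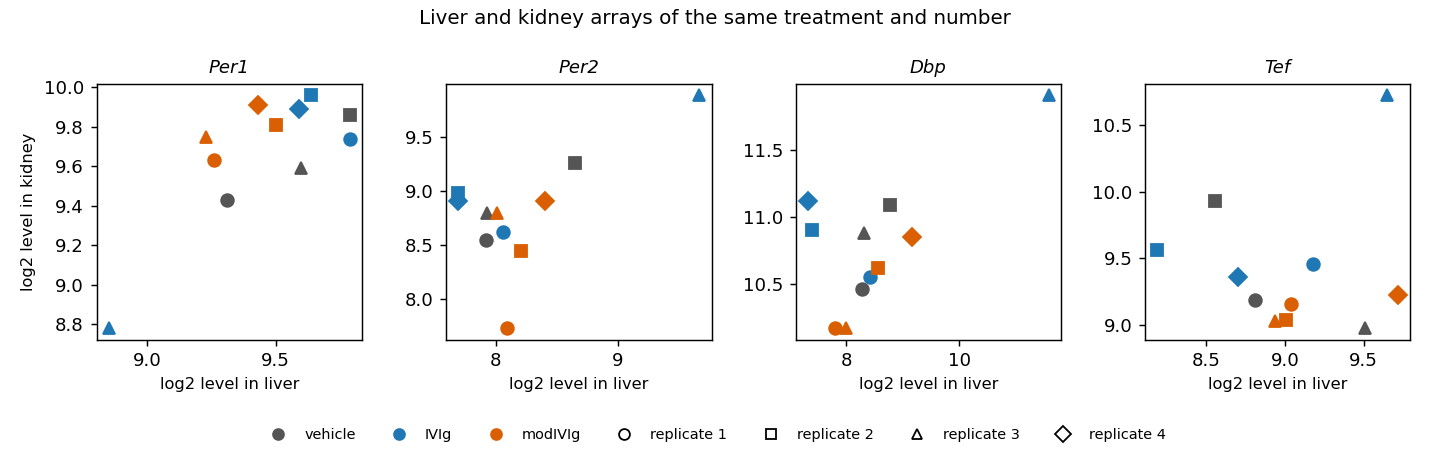
Log2 level in kidney against that in liver for Per1, Per2, Dbp and Tef, each point a pair of arrays with the same treatment (colour) and replicate number (shape). The treatment means are not subtracted here, unlike in the correlations of the text. IVIg replicate 3 is lowest in both organs for Per1 (8.85 and 8.78) and highest in both for Per2 and Dbp, while for Tef it is highest in kidney (10.72) and within the range of the others in liver (9.65).

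The genes whose liver pattern was most like that of Rgs16 over the 12 arrays were Btc, a growth factor (Pearson r 0.957), Tmprss6, a hepatic protease (0.954), and Fam177a (0.931). Those most like Per1 were H3f3b (0.931), Unk (0.928) and Ghdc (0.923), and those most like Dbp were Per2 (0.962), Hes6 (0.943) and P2ry6 (0.909). In kidney, over 11 arrays, they were Il15ra (0.957), Ets2 (0.952) and Rasl12 (0.947) for Per1, and B3gat2 (0.955), Frg2f1 (0.927) and Tmem106c (0.924) for Dbp. These correlations are across arrays that share treatment effects and the array that stands apart, and are given as descriptions.

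Between organs, the vehicle arrays were compared after 1 normalisation of all 30 arrays, on which 43.3% of features differed between kidney and liver. Rgs16 was 9.94 ± 0.99 (SD, n = 4) in liver and 5.87 ± 0.28 (n = 3) in kidney, a difference of -4.07 ± 0.51 (SE, adjusted p 3.34e-07), with 2 of 3 kidneys detected. Nr1d1 was 8.42 ± 0.25 in liver and 6.41 ± 0.17 in kidney, -2.01 ± 0.44 (adjusted p 0.000503). Dbp ran the other way, 8.42 ± 0.22 in liver and 10.25 ± 0.33 in kidney, 1.83 ± 0.67 (adjusted p 0.0302), but its adjusted p rose to 0.0518 to 0.0942 without each of 5 of the 7 arrays. For Clock (0.44), Per1 (-0.48), Per2 (0.09), Nr1d2 (-0.37) and Tef (-0.19) no difference passed, although the Clock groups did not overlap and Clock passed after 75th percentile scaling (0.53, adjusted p 0.0444).

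In blood none of the member probes except Per1 was detected on any of the 7 arrays. Per1 was detected on 3 of 7, at 5.63, 6.12 and 5.68 in vehicle, 5.67, 5.65 and 5.45 in IVIg and 6.44 on the lone modIVIg array, which gives no test. IVIg differed from vehicle by -0.22 ± 0.31 (adjusted p 1, 0% of 3975 features called, 45 at an unadjusted p under 0.05), and its groups overlapped, where 5.06% of features had none. Where the blood vehicle arrays detected nothing, the organ difference is a lower bound against the dimmest detected signal: Rgs16 was at least 2.40-fold higher in liver (adjusted p 1.29e-08), Dbp at least 2.98-fold higher in kidney (adjusted p 1.26e-06), Nr1d2 at least 2.08-fold and 1.61-fold higher in liver and kidney, Clock at least 1.35-fold and 1.84-fold, and Tef at least 1.21-fold and 1.06-fold. These stand beside 65.0% of features that differed in each comparison, and blood detected the fewest probes. The Per1 comparison depended on the scaling: liver minus blood was 0.40 ± 0.25 after quantile normalisation (adjusted p 0.164) and 1.53 after scaling to the 75th percentile of probes detected on all arrays, where the median of all features moved from 0.24 to 0.09.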

How the data were processed

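Liver, kidney and white blood cell RNA was hybridised to Illumina mouse BeadChips of 25697 probes. The deposited bead signal intensity is not normalised and its values show no background subtraction; each array also has a deposited detection p-value per probe, per the file headers. Arrays were read with GenomeStudio 1.9.0, per the submitters' processing notes, which also name lumi and limma without roles. The authors' deposited log2 values were normalised within each organ by a method the sources used here do not give. Blood modIVIg replicate 2 held background only and was left out, so 30 of 31 arrays were used.

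Here the intensities of each organ were processed with neqc (offset 16) of limma 3.58.1 in R 4.3.3. Probes with a detection p under 0.01 on at least 4 liver, 3 kidney or 2 blood arrays were kept, with the brightest probe per gene. That left 7155, 8544 and 3975 features. The treatments of an organ were fitted together with limma (two-sided, Benjamini-Hochberg adjusted p under 0.05), and values after ± are standard errors of the fit unless SD is written. Symbols came from the platform annotation, where 23978 probes have 1 gene symbol, 0 several and 1719 none. Correlations used 100000 permutations. The number of arrays limits the precision.

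Same-numbered kidney arrays deviated together in 10 of 10 pairs (correlations of 0.587 to 0.849), and 7 of 11 arrays correlated best with their own number. The kidney arrays also fall into 2 sets by number, so these values do not show that each number marks paired samples. In liver the 12 pairs had correlations of only -0.13 to 0.521. The fit was tested on simulated data. Members and lists were chosen with earlier results of these data known. Named were all 10 members, in each list the genes past the threshold or else up to 2 leading ones, and the 3 genes most like Rgs16, Per1 and Dbp. Alternatives covered background correction, filters, probe choice, weights, blocks, the authors' values and each array left out.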

Additional observations from a re-analysis of the deposited data

Results flagged for a closer look

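In groups of 4 arrays, a single array stood far from the other 3 for 2 of the 38 combinations of gene, organ and treatment tested with Dixon's test, where chance flags about 1 in 20 groups. Kidney Tef in IVIg replicate 3 was 10.72, with the nearest IVIg kidney at 9.56, a gap of 0.853 of the group's range. Liver Tef in modIVIg replicate 4 was 9.72, with the nearest modIVIg liver at 9.04, a gap of 0.872 of the range.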

How the results depend on the processing

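Of 1603 values of single genes under the alternatives, 1553 stayed on their side of the threshold, 45 of them with a change of sign where the reported value was within its standard error, 33 lost the call, 15 gained it and 2 reversed. The reversals were kidney minus blood with 75th percentile scaling, 1.15 for Per1 and -0.82 for Rgs16; the cause was not tested. For modIVIg against vehicle in liver, Rgs16 was -2.83 (adjusted p 0.0594) with no detection filter, where more features are tested and 187 genes were called, 0 of them members. Genes called numbered 1112 with array weights, 821 with only the 2 groups and 540 with the replicate block. Members called numbered 2 (Rgs16 and Nr1d1) with every probe on its own, with mean probes, with weights and with the replicate block, under which Nr1d1 had an adjusted p of 0.0256. With every probe on its own, the brighter Nr1d1 probe did not pass (adjusted p 0.0972 by limma). The Nr1d1 call there rests on the dimmer probe, mostly below detection with modIVIg, and the mean of probes includes that probe. Leaving out 1 array gave 84 to 813 genes, 0 to 2 members and a Rgs16 change of -3.17 to -2.41: 813 without IVIg replicate 3, and 84 to 155 without vehicle replicate 2, 3 or 4 or any modIVIg array. For modIVIg against IVIg in liver, genes called numbered 16 with no detection filter, 230 with weights, 123 with an intensity trend, 19 with only the 2 groups and 180 with the replicate block, and members called 1 (Nr1d1) with weights and 1 with the block. Leaving out 1 array gave 9 to 352 genes and 0 to 2 members: 352 without IVIg replicate 3, 129 without IVIg replicate 4, 34 to 50 without vehicle replicate 1, 3 or 4, and 9 to 16 without IVIg replicate 1 or 2 or any modIVIg array. In kidney the replicate block changed no member's call, and members called stayed 0 under every alternative run. In liver the numbers are not shown to pair samples: 3 of 12 arrays correlated best with their own number.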
